A study of Mus musculus with 4 samples.

Results

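The genes described are 10 interferon-inducible GTPases of the mouse: the immunity-related GTPases Iigp1, Igtp, Irgm1, Irgm2 and Tgtp1, and the guanylate-binding proteins Gbp2, Gbp3, Gbp4, Gbp5 and Gbp7. They were taken by name from 32344 listed genes, of which 15785 had at least 1 unique molecular identifier (UMI, a tag that marks 1 counted RNA molecule). All 10 had UMIs. They were measured in single immune cells of mouse liver, sorted for CD45, the surface protein of white blood cells, in 4 libraries of 5 pooled mice each. One library came from mice labelled GS(+/D)Hep, read here as loss of 1 copy of the glutamine synthetase gene in hepatocytes. One came from mice labelled URI(+/D)Hep, read likewise for URI, a chaperone of the prefoldin family, and 2 came from mice labelled WT. All 4 groups, WT included, had received tamoxifen, the drug that switches on inducible Cre recombinases, over 1 week. The Cre driver, the alleles carried by the WT mice, and their age, strain and sex are not given in the sources used here. By this reading both deletions lie in hepatocytes, which the sort removes, so levels of the targeted genes in these libraries do not check the labels. Glul was at 70.7 to 83.9 CPM (UMI counts scaled to a common library total) and Uri1 at 82.2 to 94.9 CPM over the 4 libraries.

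Interferon-inducible GTPases are enzymes that immune and tissue cells make when interferons bind their receptors, and they attack the vacuoles in which bacteria and protozoa hide. Interferon gamma, secreted by NK cells and T cells, acts on genes through GAS elements, and type I interferons act through ISRE elements. Among the immunity-related GTPases, Iigp1 and Tgtp1 are effectors that load onto pathogen vacuoles, whereas Igtp, Irgm1 and Irgm2 are regulators that keep effectors off the cell's own membranes. The guanylate-binding proteins coat exposed microbes and open the way to inflammasomes, the complexes that activate caspases. The liver receives gut-derived microbial products through the portal vein and holds many resident T, NK and innate lymphoid cells.

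The genes sit mostly in clusters. In mm10, Gbp5 (chr3:142493978-142522344), Gbp7 (chr3:142530342-142550149), Gbp3 (chr3:142560026-142573209) and Gbp2 (chr3:142620602-142638008) follow each other on the plus strand, while Gbp4 lies at chr5:105115767-105139586 on the minus strand. On chromosome 11, Irgm1 (chr11:48861968-48871683) and Tgtp1 (chr11:48985327-48994172) lie on the minus strand, and Igtp (chr11:58199556-58207591) and Irgm2 (chr11:58199618-58222782) overlap by 7974 bases on the plus strand. The overlap is one of whole gene spans: the RefSeq start window of Irgm2 (chr11:58214727-58215026) lies past the end of Igtp. Positions of the probes that separate the overlapping pair are not given in the sources used here, and Tgtp1 has a near-identical copy, Tgtp2, so counts of these 3 genes carry that uncertainty. RefSeq promoter windows of GRCm38.p6, from 250 bases before to 50 after a start, were matched for 8 of the 10 genes, all but Iigp1 and Gbp4. The 5 windows below are shown because they belong to the regulators and to members that differed most between lineages. Capitals mark matches, on either strand, to the ISRE core (GAAA, any 2 bases and GAAA again) and to the GAS motif TTCNNNGAA, and each window runs 5′ to 3′ along the gene.
Igtp, chr11:58199306-58199605, plus strand: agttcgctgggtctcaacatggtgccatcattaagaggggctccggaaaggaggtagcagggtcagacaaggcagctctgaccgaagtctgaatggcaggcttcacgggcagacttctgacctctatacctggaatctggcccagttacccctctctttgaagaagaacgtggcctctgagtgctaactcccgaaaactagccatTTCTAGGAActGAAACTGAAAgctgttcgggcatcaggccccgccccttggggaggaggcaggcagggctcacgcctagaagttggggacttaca
Irgm2, chr11:58214727-58215026, plus strand: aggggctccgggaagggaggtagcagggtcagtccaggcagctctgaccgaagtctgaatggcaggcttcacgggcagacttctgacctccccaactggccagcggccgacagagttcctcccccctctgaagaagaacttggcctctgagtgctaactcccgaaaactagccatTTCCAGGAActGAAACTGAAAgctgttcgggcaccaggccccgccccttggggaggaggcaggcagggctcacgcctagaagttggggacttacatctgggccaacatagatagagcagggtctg
Tgtp1, chr11:48992197-48992496, minus strand: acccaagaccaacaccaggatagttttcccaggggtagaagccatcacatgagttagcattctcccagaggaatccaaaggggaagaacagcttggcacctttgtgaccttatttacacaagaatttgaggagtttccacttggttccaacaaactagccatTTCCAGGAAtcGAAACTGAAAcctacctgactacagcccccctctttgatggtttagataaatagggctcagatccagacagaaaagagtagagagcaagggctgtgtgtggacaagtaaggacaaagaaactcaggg
Irgm1, chr11:48871371-48871670, minus strand: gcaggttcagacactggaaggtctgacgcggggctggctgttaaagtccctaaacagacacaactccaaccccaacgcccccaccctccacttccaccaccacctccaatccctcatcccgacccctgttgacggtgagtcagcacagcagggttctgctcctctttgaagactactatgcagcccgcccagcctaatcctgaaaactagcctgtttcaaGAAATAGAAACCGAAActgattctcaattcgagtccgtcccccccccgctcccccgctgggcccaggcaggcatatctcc
Gbp2, chr3:142620413-142620712, plus strand: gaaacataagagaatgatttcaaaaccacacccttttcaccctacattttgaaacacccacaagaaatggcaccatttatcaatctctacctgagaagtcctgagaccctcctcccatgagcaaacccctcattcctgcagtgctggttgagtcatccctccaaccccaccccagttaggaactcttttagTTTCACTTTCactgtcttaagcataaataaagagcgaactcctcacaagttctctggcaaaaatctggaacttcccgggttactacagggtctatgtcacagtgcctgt

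An ISRE core was found in a window of each of the 8 matched genes, against 3.44% of 32851 RefSeq windows of that length. A GAS match was found for 5 of them (Igtp, Irgm2, Tgtp1, Gbp5 and Gbp7), against 8.30% of windows, and 0.454% of windows held both. In Igtp, Irgm2 and Tgtp1 the GAS match stood directly ahead of the ISRE core: from -45 to -37 and from -34 to -25 in Igtp, from -75 to -67 and from -64 to -55 in Irgm2, and from -88 to -80 and from -77 to -68 in Tgtp1, counted from the start. The Igtp and Irgm2 windows shared a run of 61 identical bases, and the longest run shared by Tgtp1 with Irgm2 was 20 bases. Irgm1 held 2 overlapping ISRE cores and Gbp2 held 1, on the opposite strand. These matches describe letters in a window, and binding was not measured.

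Barcodes with at least 500 UMIs were kept: 7846 in the GS library, 9096 in URI, 8483 in WT replicate 1 and 7453 in WT replicate 2, and values are given in this order throughout. Median UMIs per barcode were 4448, 4973, 3763 and 2659, so WT replicate 2 was the shallowest. Barcodes were assigned to a lineage when they held a UMI of its marker (Cd3e, Cd4, Cd8a, Ncr1, Cd79a, Csf3r or Csf1r) and none of the excluding markers, which placed 67.0%, 66.4%, 69.5% and 64.5% of them. CD4 T and CD8 T barcodes held Cd3e with Cd4 or Cd8a, and other T barcodes held Cd3e with neither. Other T can thus take in CD4 and CD8 T cells whose Cd4 or Cd8a RNA was missed. In GS, 70 of 762 other T barcodes were under 1000 UMIs, against 16 of 1271 CD4 T barcodes. No full barcode was shared between libraries. Summed T cell markers were at 3271 to 6290 CPM in the 3 T lineages and at 95 to 477 in NK, B and neutrophil sums. The Kupffer cell list stayed at 0 to 1.9 CPM outside the monocyte gate. The neutrophil gate also held some barcodes low in neutrophil markers, described with Gbp5 below. The libraries also stood apart in Y-linked genes: Ddx3y was at 79.4, 222, 4.76 and 117 CPM, lowest in WT replicate 1, and the labels do not give the sex of the mice. In sums over a lineage, fewer expressing cells and less RNA per cell cannot be told apart.

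T cells carried most of the GTPase transcripts. Of all UMIs of the 10 genes in gated barcodes, 82.9% (GS), 78.4% (URI), 79.1% (WT replicate 1) and 62.4% (WT replicate 2) lay in the CD4 T, CD8 T and other T lineages, against 67.4%, 58.9%, 63.1% and 44.0% of the UMIs of all genes. The effectors were the most T-restricted: T lineages held 84.1% to 98.5% of Iigp1 UMIs and 86.8% to 98.1% of Tgtp1 UMIs. Gbp3 was the least, at 40.8% to 67.5%. Summed over the 10 genes, the other T lineage reached 1106, 1014, 1188 and 585 CPM. B cells reached 284, 324, 347 and 227 CPM, below each T lineage and NK cells in all 4 libraries. Free RNA, measured in barcodes under 100 UMIs, held 781, 723, 903 and 394 CPM.

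**Figure D1:**
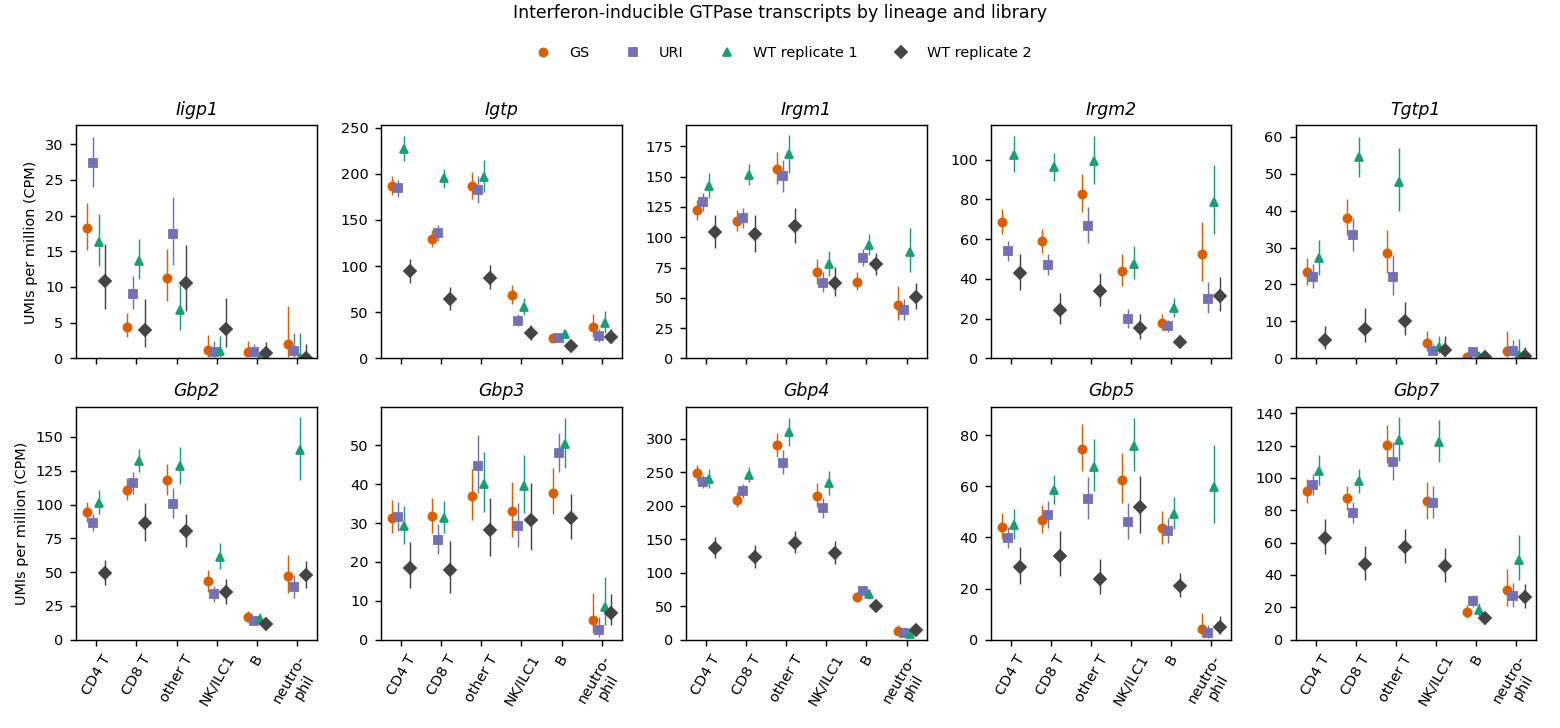
Level of each of the 10 GTPase genes in 6 lineages, in CPM (linear axis, scaled for each gene), with 1 point per library and exact Poisson 95% intervals for counting error. Iigp1 and Tgtp1 fall to a few CPM or less outside the T lineages, whereas Gbp3 and Gbp5 keep similar levels across the lymphoid lineages and Gbp4 is lowest in neutrophils.

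Lineages were compared with edgeR's quasi-likelihood test on UMI sums per lineage and library, with the library as a block and Benjamini-Hochberg adjustment over 11039 genes at 0.05, each lineage against the mean of the others. Of 60 gene and lineage pairs, 48 passed, where 63.1% of the tests over all genes did. Members called higher and lower numbered 8 and 0 of 10 in CD4 T cells (background 33.0% and 26.6% of all genes), 6 and 0 in CD8 T cells (33.8% and 30.0%), and 9 and 0 in other T cells (29.1% and 22.9%). In NK and ILC1 cells 4 rose and 6 fell (30.4% and 25.7%), and in B cells 1 rose and 8 fell (38.5% and 31.2%). Member medians on the log2 scale were 0.46, 0.52, 0.75, -0.68 and -1.91 in these 5 lineages, against all-gene medians of 0.04, 0.02, 0.03, 0.02 and 0.06. Library pools are the replicates here, and the library was a block. The p-values therefore measure how far the lineage differences vary between pools. That spread may be partly technical, and it also holds any difference between the groups that varies by lineage.

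Iigp1, an effector that is among the first to load onto Toxoplasma vacuoles, was highest in CD4 T cells, at 18.3, 27.4, 16.2 and 10.8 CPM. In NK and ILC1 cells it was at 1.1, 0.8, 1.1 and 4.1 CPM, from 3 to 7 UMIs per library, and in B cells at 0.9, 1.0, 0 and 0.8 CPM, where the 0 allows up to 0.631 CPM. The CD4 T values lay above those of NK and B cells in all 4 libraries with no overlap. Its log2 difference from the other lineages was 2.72 in CD4 T cells (SE 0.30, adjusted p = 3.8e-08, edgeR). CD4 T, other T and CD8 T cells stood in that order by mean (18.2 ± 6.90, 11.5 ± 4.42 and 7.80 ± 4.54 CPM, SD, n = 4), and neighbours among them did not differ beyond their spread (adjusted p = 0.212 and 0.354, edgeR, pairs of lineages). Without WT replicate 1 the CD8 T difference of Iigp1 fell short of the threshold (log2 1.33 with it and 0.65 without). The NK and ILC1 difference (-1.50, adjusted p = 0.038, edgeR) did so under several settings. Adjusted p was 0.052 with total UMIs, 0.127 with barcodes of at least 1000 UMIs and 0.119 with lineage gates at 2 UMIs. It was 0.294 with myeloid barcodes split by the larger of Csf3r and Csf1r, 0.185 without the GS library and 0.307 without the URI library.

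Tgtp1, the other effector, had its highest mean in CD8 T cells, at 38.0, 33.3, 54.4 and 8.05 CPM. Other T cells followed at 28.6, 22.1, 47.9 and 10.0 CPM, above CD8 T cells in WT replicate 2, and the pair did not differ beyond its spread (log2 0.33, adjusted p = 0.183, edgeR). B cells held 0.5, 1.8, 0.6 and 0.3 CPM of it and NK and ILC1 cells 4.1, 1.9, 3.2 and 2.3 CPM. All CD8 T values exceeded all B and NK values, although WT replicate 2 lay far below the other 3 libraries. The log2 difference was 2.59 in CD8 T cells (SE 0.16, adjusted p = 2.3e-12, edgeR) and -3.45 in B cells (SE 0.36, adjusted p = 9.0e-09). A Tgtp1 UMI was found in 15.5%, 14.8%, 20.1% and 2.88% of CD8 T barcodes, at median depths of 3670 to 6503 UMIs, and in 0.179%, 0.723%, 0.186% and 0.0594% of B barcodes at 2098 to 4145. The B cell share was taken as the background for this gene.

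Igtp, a regulator, was at 187, 184, 227 and 94.1 CPM in CD4 T cells, 68.6, 41.0, 55.8 and 27.4 CPM in NK and ILC1 cells and 22.0, 21.7, 25.9 and 13.2 CPM in B cells. Every CD4 T value lay above every NK and B value. Its log2 differences were 1.30 in CD4 T cells (SE 0.08, adjusted p = 1.8e-12, edgeR) and -2.21 in B cells (SE 0.11, adjusted p = 1.3e-14). Irgm2, whose gene span overlaps that of Igtp, was at 82.8, 66.5, 99.1 and 33.9 CPM in other T cells. It was lowest in B cells (18.0, 16.0, 25.2 and 8.3 CPM), without overlap between these lineages. The difference of Irgm2 between CD4 T and other T cells missed the threshold (log2 -0.11, SE 0.12, adjusted p = 0.669, edgeR), and neutrophils were above other T cells with TMM and below them with total UMIs (log2 of other T against neutrophil -0.57 and 0.59). The third regulator, Irgm1, best known for its part in autophagy and resistance to mycobacteria, had the narrowest range of the 5 immunity-related GTPases. It was at 157, 150, 168 and 109 CPM in other T cells and 63.4, 83.1, 93.6 and 77.5 CPM in B cells, a log2 difference from the other lineages of 0.51 and -0.40.

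Gbp4 was high in NK cells as well as T cells, lower in B cells and lowest in neutrophils. It was at 215, 197, 233 and 129 CPM in NK and ILC1 cells, at 209, 222, 247 and 124 CPM in CD8 T cells, at 63.4, 72.1, 68.1 and 50.6 CPM in B cells and at 12.3, 9.3, 8.5 and 13.9 CPM in neutrophils. NK and CD8 T values interleaved (log2 difference of CD8 T from NK -0.06, adjusted p = 0.607, edgeR), every B value lay below every NK and CD8 T value, and every neutrophil value below every B value. Gbp7, a partner of NADPH oxidase assembly, had its lowest level in B cells, at 17.3, 23.9, 18.5 and 13.2 CPM, against 85.5, 84.7, 122 and 45.5 CPM in NK and ILC1 cells. The B cell difference was -2.08 on the log2 scale (SE 0.11, adjusted p = 3.4e-14). Gbp2, which binds the vacuoles of several intracellular microbes, was also lowest in B cells (16.8, 14.0, 15.6 and 11.4 CPM), against 111, 116, 132 and 86.2 CPM in CD8 T cells. CD8 T and other T cells interleaved in Gbp2 (log2 0.06, SE 0.15, adjusted p = 0.808), and neutrophils of WT replicate 1 reached 140 CPM.

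Gbp3 and Gbp5 went another way. Gbp3 had its highest mean in B cells, at 37.8, 47.9, 50.3 and 31.3 CPM, a log2 difference of 0.80 (SE 0.11, adjusted p = 9.1e-07, edgeR), and was the 1 member called higher there. Other T cells, at 36.9, 44.8, 40.0 and 28.2 CPM, overlapped with B cells, and the pair did not differ beyond its spread (log2 -0.28, adjusted p = 0.0806, edgeR, and 0.329 with total UMIs). Gbp5, which promotes assembly of the NLRP3 inflammasome, had its highest mean in NK and ILC1 cells, at 62.6, 45.9, 75.9 and 51.9 CPM (log2 0.56, SE 0.22, adjusted p = 0.036). B cells at 43.5, 42.5, 49.2 and 20.9 CPM and CD4 T cells at 44.2, 39.8, 44.9 and 28.4 CPM interleaved, and 5 of its 6 lineage differences missed the threshold. The NK difference missed it without the GS library (log2 0.56, adjusted p = 0.121, edgeR) or without WT replicate 2 (0.40). It also missed it with lineage gates at 2 UMIs (adjusted p = 0.069, edgeR) and with DESeq2 (adjusted p = 0.151). With myeloid barcodes split by the larger of Csf3r and Csf1r it did so too (adjusted p = 0.108, edgeR). In neutrophils Gbp5 moved from -0.59 to -2.41, past the threshold, without WT replicate 1. Differences of Gbp3 in CD4 T and CD8 T cells and of Gbp5 in CD4 T and B cells, none of which passed, changed sign when total UMIs replaced TMM scaling.

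**Figure D2:**
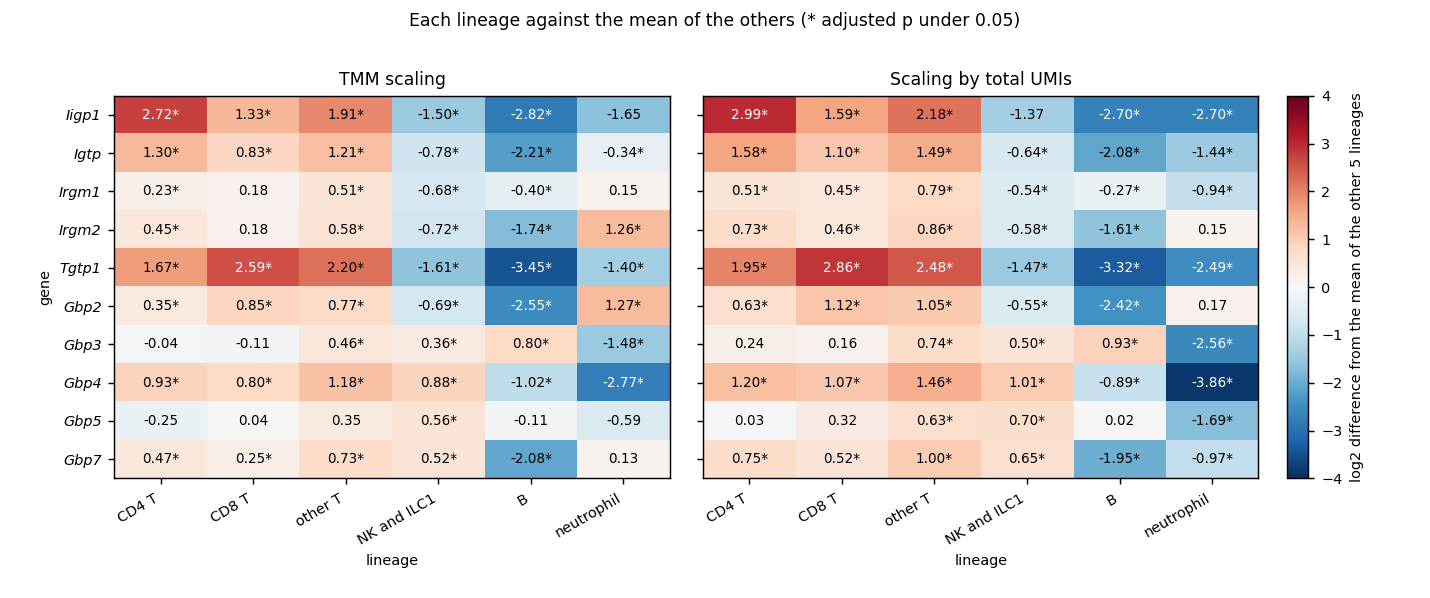
Grid of the log2 difference of each gene (rows) in each lineage (columns) from the mean of the other lineages, from edgeR, with TMM scaling on the left and total UMIs on the right (red higher, blue lower, and a star where the adjusted p was under 0.05). B cells lie below 0 for 9 of 10 genes under TMM and for 8 of 10 with total UMIs (Gbp5 changes sign), and in neutrophils Irgm1 and Gbp7 change from positive to negative with total UMIs.

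In neutrophils the direction depended on the scaling. There 10 genes took 13.0% to 22.3% of all UMIs, against 3.89% to 7.82% in the other tested lineages, and TMM factors were 0.499 to 0.559 against 1.07 to 1.19. With TMM, 2 members rose and 4 fell in neutrophils (background 35.1% and 42.6%), with Irgm2 at 1.26 and Gbp2 at 1.27 on the log2 scale. Scaled by total UMIs, 0 rose and 8 fell (all genes 17.3% and 70.5%), Irgm2 was at 0.15 and Gbp2 at 0.17, both short of the threshold (adjusted p = 0.304 and 0.341, edgeR), and Irgm1 and Gbp7 turned from 0.15 and 0.13 to -0.94 and -0.97. That scaling moved the median of all genes by -1.09 in neutrophils and by 0.13 to 0.28 in the other lineages. Gbp4 (-2.77 with TMM and -3.86 with total UMIs) and Gbp3 (-1.48 and -2.56) fell in neutrophils under both. With total UMIs, members called higher and lower in the lymphoid lineages numbered 8 and 0 in CD4 T (all genes 58.7% and 13.6%), 8 and 0 in CD8 T (54.5% and 17.2%), 10 and 0 in other T (55.2% and 9.18%), 4 and 5 in NK and ILC1 (41.8% and 19.6%) and 1 and 8 in B cells (47.4% and 25.4%).

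The strict monocyte gate held 16 to 56 barcodes per library and was not tested. A wider one, which split myeloid barcodes by the larger of Csf3r and Csf1r and was added after seeing the data, held 71, 136, 95 and 161. In it Irgm1 was at 205, 99.6, 158 and 147 CPM, overlapping its T cell levels, and Gbp5 at 148, 31.7, 66.5 and 28.7 CPM, highest in the GS library. Gbp4 was at 2.9, 6.2, 1.3 and 4.6 CPM, low as in neutrophils.

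Per barcode the genes were sparse. Barcodes were thinned to 1000 UMIs so that depth was equal, and shallower ones were left out: 1 to 164 per lineage and library, most in WT replicate 2 neutrophils (164 of 795). Of the CD4 T barcodes left, 49.1%, 47.8%, 51.4% and 36.0% held a UMI of at least 1 of the 10 genes. For other T cells the shares were 55.8%, 52.8%, 55.3% and 38.3%, for NK and ILC1 cells 38.6%, 35.5%, 46.0% and 25.8%, and for B cells 23.2%, 24.1%, 25.7% and 17.7%. Without thinning, the medians over the 4 libraries were 86.0% in CD4 T and 53.1% in B barcodes. In all 4 libraries the share in each T lineage lay above that in NK cells and the share in NK cells above that in B cells. With gates at 2 UMIs, CD8 T cells of WT replicate 2 were at 30.5% and NK and ILC1 cells at 31.7%, so the first order turned there. Neutrophils, at 15.5%, 17.2%, 22.0% and 14.6%, lay below B cells in each library at this depth. Thinned to 500 UMIs, which keeps every barcode, neutrophils were at 13.9%, 12.9%, 16.4% and 10.8% and B cells at 12.4%, 14.7%, 15.1% and 10.9%, so neutrophils were then the higher in the GS library and WT replicate 1.

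**Figure D3:**
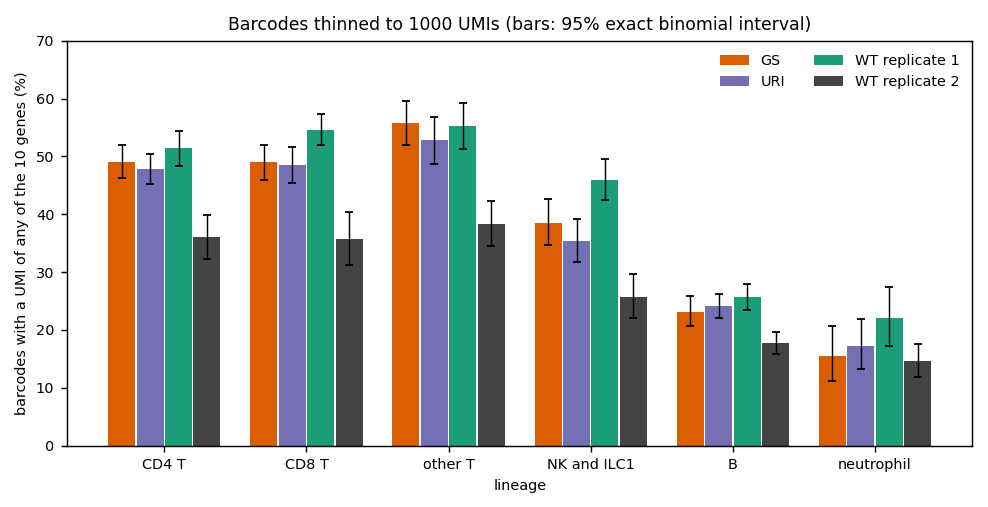
Share of barcodes, thinned to 1000 UMIs, with a UMI of at least 1 of the 10 genes, in percent, by lineage and library, with exact (Clopper-Pearson) 95% intervals that cover counting error only. WT replicate 2 has the lowest share in all 6 lineages, from 14.6% in neutrophils to 38.3% in other T cells.

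GTPase UMIs gathered in barcodes that also held 2 or more UMIs of type I interferon targets. In CD4 T cells of the GS library, thinned to 1000 UMIs, barcodes with none of the 20 listed targets' UMIs held 0.675 GTPase UMIs each, and those with 2 or more held 1.57. In WT replicate 2 the values were 0.314 and 0.850. The mean was higher at 2 or more in 24 of 24 lineage and library sums, by 1.41 to 4.42 times with a median of 2.10, and the exact Poisson 95% intervals, which cover counting error only, were apart in 22. At 1 target UMI the mean was below that at 0 in NK and ILC1 cells of GS (0.485 against 0.521), URI (0.446 against 0.484) and WT replicate 2 (0.306 against 0.313). It was also below in CD8 T cells of WT replicate 2 (0.373 against 0.491) and CD4 T cells of URI (0.656 against 0.666). The other sums had a higher mean at 1 than at 0. Barcodes of 1 library share their source, so these values are a description with no test.

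**Figure D4:**
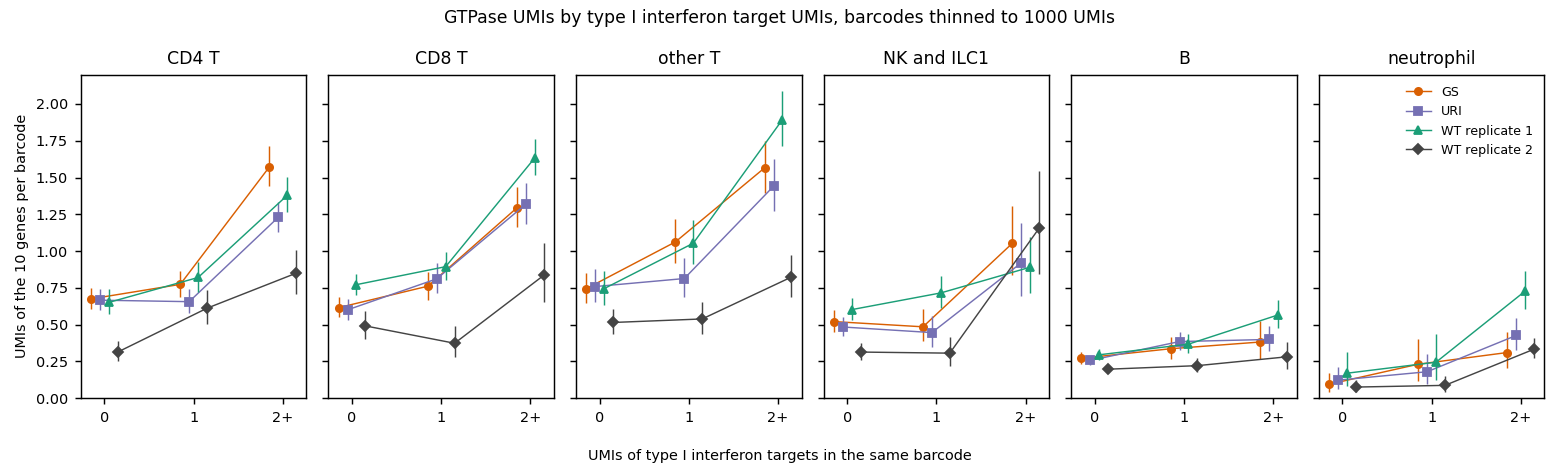
Mean UMIs of the 10 genes per barcode, thinned to 1000 UMIs, in barcodes with 0, 1 or 2 and more UMIs of type I interferon targets, by lineage and library, with exact Poisson 95% intervals. CD4 T cells of the GS library go from 0.675 at 0 target UMIs to 1.57 at 2 or more.

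Across the 24 lineage and library sums, which share libraries and scaling, Igtp and Tgtp1 had the most similar profiles of any 2 members (Pearson r of log2 CPM 0.95), and Gbp2 and Gbp3 the least (-0.07). Irgm2 followed Gbp2 (0.86), and Gbp3 followed Gbp5 (0.84). Among 7722 other genes with a mean of at least 20 CPM, the most similar profiles were Cd3g (0.958) for Igtp, Il7r (0.953) for Tgtp1, Trat1 (0.922) for Iigp1, Ifit1bl1 (0.955) for Irgm1 and Pak2 (0.924) for Irgm2. For the guanylate-binding proteins they were Ipcef1 (0.927) for Gbp2, Pdia4 (0.958) for Gbp3, H2-Q7 (0.986) for Gbp4, Ids (0.908) for Gbp5 and Ms4a4b (0.953) for Gbp7. Cd3g and Trat1 encode parts of the T cell receptor complex or its adaptors, and Il7r the interleukin 7 receptor.

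Among the other genes of the pathway, ligand and receptors came first. Ifng, which encodes interferon gamma, was at 1238, 1255, 765 and 950 CPM in NK and ILC1 cells (log2 3.24, SE 0.16) and at 329, 386, 152 and 456 CPM in CD4 T cells. NK and ILC1 cells held 1.1 to 4.7 CPM of Ifngr2, the signalling chain of the interferon gamma receptor, against 74.2 to 83.3 CPM in CD4 T cells. Their log2 difference of Ifngr2 from the other lineages was -5.48 (SE 0.33, adjusted p = 7.5e-13, edgeR). B cells, where most members were lower, held 95.9 to 158 CPM of Ifngr2, and neutrophils 133 to 242 CPM. Other T cells, where most members were higher, held 19.3 to 38.7 CPM. Ifngr1, the other chain of this receptor, was at 1184 to 1597 CPM in NK and ILC1 cells and 396 to 589 CPM in CD4 T cells.

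The list counts below stand against the shares of all genes called in each lineage, given with the member counts. Of 9 further tested GTPases, 6 rose and 2 fell in CD4 T cells and 2 rose and 5 fell in B cells, with Ifi47 at 0.96 and -2.16 on the log2 scale. In NK and ILC1 cells 3 rose and 3 fell, near the 30.4% and 25.7% of all genes, and Ifi47 rose there (0.61). Of 19 type I interferon targets, 9 rose and 4 fell in CD4 T cells, 0 rose and 14 fell in NK and ILC1 cells and 2 rose and 16 fell in B cells. In neutrophils 15 of the 19 rose and 1 fell, with a list median of 2.55, while the 10 GTPases had a median of -0.47. With total UMIs those neutrophil counts were 14 and 5. Of 13 interferon gamma targets outside the GTPases, 8 rose and 3 fell in CD4 T cells and 1 rose and 11 fell in B cells. Of 11 partners at vacuoles and in inflammasomes, 0 rose and 9 fell in CD4 T cells, and 10 rose and 0 fell in neutrophils (7 and 3 with total UMIs). With total UMIs the CD4 T counts of these 4 lists were 6 and 0, 12 and 2, 9 and 0, and 1 and 8. Of all genes, 58.7% rose and 13.6% fell there. The shares of further GTPases, type I targets and interferon gamma targets that rose thus all lie near the background.

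The 2 WT libraries stood apart in these genes. Of 56 gene and lineage pairs with enough UMIs to test, 53 were lower in WT replicate 2 than in WT replicate 1. Of all genes, 50.3% to 55.2% were lower there in the lymphoid lineages and 37.9% in neutrophils. In 43 pairs WT replicate 2 held the lowest value of the 4 libraries, against 38.3% of all genes. All 10 members were lowest there in CD4 T and CD8 T, 9 of 10 in other T and 7 of 8 in B cells. In NK and ILC1 cells 5 of 10 were, and in neutrophils 2 of 8, near their all-gene shares of 42.3% and 20.6%. The exceptions to the first count were Iigp1 in other T cells and in NK and ILC1 cells, and Gbp4 in neutrophils. Median log2 differences of WT replicate 2 from WT replicate 1 over the members, with a pseudocount of 1 CPM, were -0.76 in CD4 T, -1.02 in CD8 T, -1.09 in other T, -0.67 in NK and ILC1, -0.56 in B cells and -0.83 in neutrophils, while all-gene medians lay between -0.07 and 0.19. Tgtp1 differed most within T cells: WT replicate 1 held 5.47 times the CPM of WT replicate 2 in CD4 T, 6.76 times in CD8 T and 4.77 times in other T cells. Irgm1 differed by 1.21 to 1.73 times. With 1 library on each side these are values without a test.

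Other measures moved with this difference. Summed immediate early genes such as Fos, Jun and Egr1, which respond to handling and to stimulation, were at 14125, 14182, 9695 and 22485 CPM in CD4 T cells and 16448, 18305, 12498 and 27220 CPM in B cells, lowest in WT replicate 1 and highest in WT replicate 2. Ifng was lowest in WT replicate 1 in each of the 6 lineages. Type I interferon targets had medians of -0.80 to -0.13 and the other GTPases of -1.17 to -0.52 for WT replicate 2 against WT replicate 1, whereas interferon gamma targets outside the GTPases had medians of 0.21 to 0.41. Depth was lowest in WT replicate 2, the Y-linked genes lowest in WT replicate 1, and free RNA held 903 and 394 CPM of the 10 genes in WT replicates 1 and 2. The part of these measures in the difference was not tested.

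**Figure D5:**
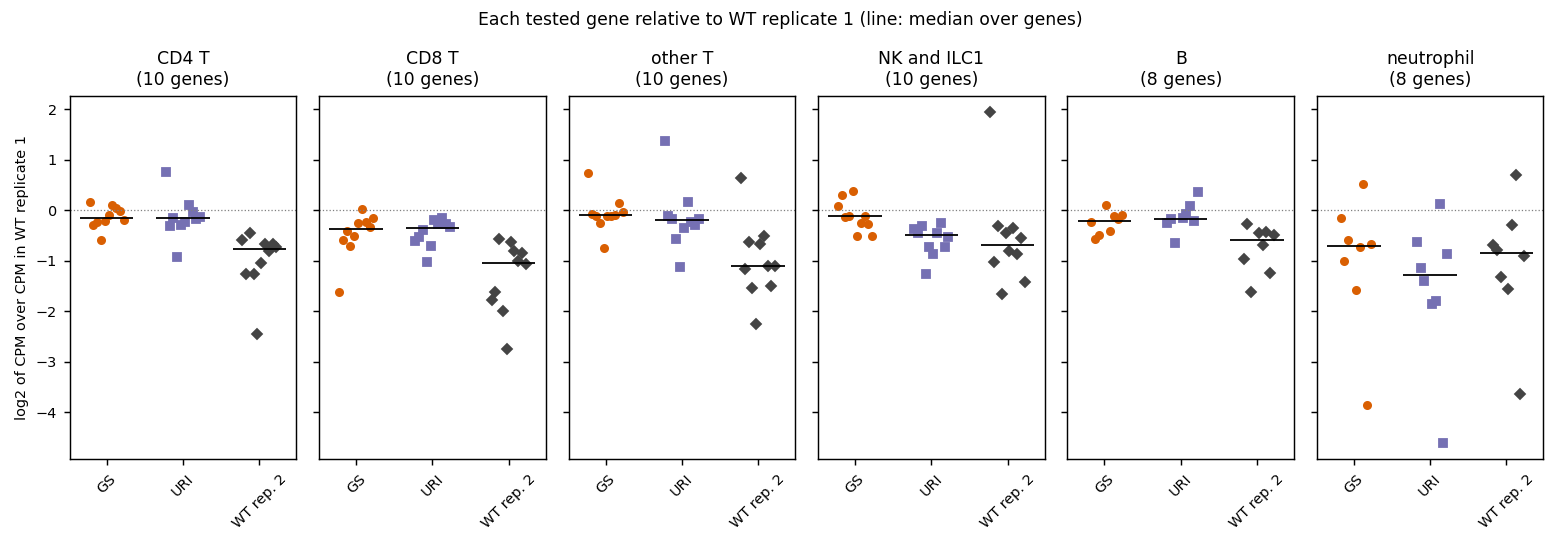
Log2 ratio, without a pseudocount, of each gene's CPM to its CPM in WT replicate 1, by lineage, for the GS, URI and WT replicate 2 libraries, with a line at the median over genes. WT replicate 2 lies below 0 for 53 of 56 pairs, where 37.9% to 55.2% of all genes per lineage were lower in it. GS and URI lie between the WT replicates for 42 and 40 of the 56 pairs.

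The 2 hepatocyte deletions were compared with WT in each lineage. No member passed the test in either. In GS, 0 of 56 gene and lineage pairs passed (edgeR's quasi-likelihood test, 0 at an unadjusted p under 0.05, and with DESeq2 0 and 1), where 0.00165% of 60507 tests over all genes passed. In URI, 0 of 56 passed (1 unadjusted, and with DESeq2 0 and 1; background 0.00331%). URI against GS gave 0 as well (0 unadjusted, and with DESeq2 0 and 0; background 0.00496%). GS values lay between the WT replicates in 42 of 56 pairs, above both in 9 and below both in 5, and URI values lay between them in 40, above in 6 and below in 10. The background for values above and below both was 26.0% and 21.2% of all tests in GS and 25.0% and 20.1% in URI. The spread came from 2 WT libraries, with 1 residual degree of freedom and a median SE of 0.47 (GS) and 0.48 (URI) on the log2 scale, so differences of that size were not detectable.

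Member medians for GS against WT were 0.26 in CD4 T, -0.01 in CD8 T, 0.30 in other T, -0.01 in NK and ILC1, 0.09 in B cells and -0.41 in neutrophils. For URI they were 0.18, 0.04, 0.21, -0.38, 0.17 and -0.92. The choice of WT library set the sign of most: against WT replicate 1 alone all 12 medians were below 0 (-1.20 to -0.11), and against WT replicate 2 alone 11 of 12 were above 0 (-0.15 to 0.99), the exception being URI in neutrophils. Igtp in CD4 T cells differed by 0.19 (SE 0.44) in GS and 0.18 (SE 0.44) in URI. Iigp1 in CD4 T cells, highest in the URI library, differed by 0.98 there (SE 0.52, adjusted p = 1.00, edgeR).

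Gbp5 in neutrophils had the smallest unadjusted p. It was at 4.1, 2.4, 59.6 and 4.8 CPM, from 4, 5, 63 and 9 UMIs, so WT replicate 1 alone was high. Its log2 difference was -2.91 (SE 1.52) in GS and -3.72 (SE 1.46, adjusted p = 0.842, edgeR) in URI. With lineage gates at 2 UMIs the URI difference passed (-5.79, adjusted p = 0.00024), as it did with total UMIs (-3.60, adjusted p = 0.0038). The 63 UMIs of WT replicate 1 came from 7 of 323 barcodes, with 27 in 1 of them. Those 7 also held 90 of the 148 Gbp2 UMIs and 211 of the 498 UMIs of all 10 genes, and type I interferon targets at 40764 CPM against 3544 in the other 316. Neutrophil markers were at 88986 CPM in the 7 and 137178 in the rest, B and dendritic cell markers were at 0, and 0 of the 7 were called as doublets by Scrublet. With and without a Gbp5 UMI, they were at 70654 and 117607 CPM in GS and 40110 and 78910 in WT replicate 2. In URI they were at 258 and 154427 CPM, so its 5 Gbp5 UMIs came from 4 barcodes low in neutrophil markers.

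Whether a deletion acted differently between lineages was tested by an interaction of lineage and deletion with 5 residual degrees of freedom. Of 120 tests of members, 0 passed: in GS 0 of 60 (edgeR, 5 at an unadjusted p under 0.05, and with DESeq2 0 and 2), and in URI 0 of 60 (12 unadjusted, and with DESeq2 1 and 8), where 0.117% of all tests passed. The unadjusted counts were 8.33% of member tests in GS, against 2.27% of the tests over all genes, and 20% in URI, against 4.44%. The smallest adjusted p was 0.084, for Gbp2 in neutrophils of the URI library. Neutrophils of that library also held most of the calls over all genes, 159 of 11549 (1.38%). The DESeq2 call was Gbp5 in neutrophils of the URI library (log2 -3.57, adjusted p = 0.024), which rests on the same 7 barcodes of WT replicate 1.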

How the data were processed

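Sorted, fixed liver cells of 4 multiplexed libraries were hybridised to a transcriptome-wide probe set, per the labels' protocols, so a gene is read through its probes. The authors deposited whole-number UMI counts per gene and barcode, without normalization, made with Cell Ranger 8.0.0 on mm10 per the submitters' processing notes. The libraries held 24041049 to 51920505 UMIs, and the members and gene lists were chosen with earlier results of these data known. Barcodes with at least 500 UMIs were gated by raw marker UMIs (at least 1), without clustering. CPM are UMIs of a lineage sum scaled to a common total. Sums of lineages with at least 50 barcodes in each library were tested with edgeR 4.0.16 in R 4.3.3 (TMM, filterByExpr, Benjamini-Hochberg): between lineages with a library block (24 sums, 15 residual degrees of freedom), within a lineage across groups, and as an interaction. The code of the fits was tried on simulated counts with a fixed spread, which does not measure their power in these data. Iigp1 and Tgtp1 had too few UMIs for the group comparison in B cells and neutrophils. The 10 genes were all named, and for each the other genes with the highest correlation were named by rank. Doublets were kept, except in an alternative that removed the barcodes Scrublet marked (scanpy 1.11.5). Its automatic threshold marked 0 in WT replicate 1, where the median threshold of the other libraries was used instead. Intervals are exact at 95% and, like the limit of 3 counts behind a 0, cover counting error only. Other tools were python 3.11.15, numpy 2.4.6, scipy 1.17.1, pandas 2.3.3, matplotlib 3.10.9, limma 3.58.1 and, as an alternative test, DESeq2 1.42.0. Scaling by total UMIs, the split of myeloid barcodes by the larger marker and pairwise lineage tests were added after seeing the data.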

Additional observations from a re-analysis of the deposited data

How the results depend on the processing

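Between lineages, 43 to 52 of the 60 gene and lineage pairs passed under the 7 other settings, against 48 in the fit as reported, and 41 to 47 when 1 library was left out. Single lineage differences stayed on their side of the threshold in 602 of 660 recomputations, 39 fell short of it and 16 newly passed. Of those that passed in either fit, 3 changed direction, all in neutrophils: Igtp moved to 0.0061 with myeloid barcodes split by the larger marker, and Irgm1 and Gbp7 moved to -0.94 and -0.97 with total UMIs.

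Members passing in URI against WT numbered 1 with gates at 2 UMIs and 1 with total UMIs, both Gbp5 in neutrophils. In URI against GS 1 passed with the myeloid split, Gbp5 in the wider monocyte gate (log2 -2.27, adjusted p = 0.0069, edgeR). In the interaction 4 passed with gates at 2 UMIs, 1 with DESeq2 and 2 with no filter on low counts, all in neutrophils of the URI library. The fit as reported called 159 of 11549 genes (1.38%) there. Shares of all genes under these alternatives are not given here, so the member counts stand without their background. GS against WT gave 0 under each alternative. Leaving out GS or URI gave 0 throughout, and without a WT library the group comparisons leave no residual degrees of freedom, so those are values without a test, and the interaction could not be fitted.

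With 1 library left out, the member medians for GS ran from -0.15 to 0.71 in CD4 T, -0.38 to 0.76 in CD8 T, -0.11 to 0.99 in other T, -0.19 to 0.44 in NK and ILC1, -0.20 to 0.43 in B cells and -0.72 to 0.19 in neutrophils. For URI they ran from -0.16 to 0.74, -0.35 to 0.78, -0.20 to 0.87, -0.45 to 0.15, -0.16 to 0.62 and -1.20 to -0.15.

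The median share of barcodes with a member UMI, over the 4 libraries, was 86.0%, 90.1%, 81.9%, 80.7%, 53.1%, 39.6% and 63.4% without thinning in CD4 T, CD8 T, other T, NK and ILC1, B cells, neutrophils and monocytes. Thinned to 500 UMIs it was 30.5%, 30.5%, 31.7%, 21.5% and 13.6% in the first 5, 13.4% in neutrophils and 16.8% in monocytes. Both settings change the number of UMIs left per barcode.

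The GS, URI and WT groups could not be paired, because the labels do not match a pool of 1 group with a pool of another. Lineages were compared within libraries. Depth limits Iigp1 and Tgtp1 outside T cells, where 0 to 13 UMIs were counted per library in B cells and neutrophils.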
